A study of Mus musculus with 16 samples.

Results

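The FGF receptor family was followed here in the outer and inner tissue layers of the mouse forelimb tip. Its 5 members are Fgfr1, Fgfr2, Fgfr3, Fgfr4 and Fgfrl1, which were taken from the gene count table by symbol and make up 5 of its 53800 genes. Their exons were taken from the exon count files by gene identifier: 134 exon bins (whole exons, or the parts into which overlapping transcripts divide an exon) of 358989 in all. Every one of the 16 libraries was RNA-seq of distal forelimb from mouse embryos of strain B6 with no genetic change or treatment named. The ectoderm (outer layer) and the mesoderm (the tissue inside it) were separated with fine forceps after trypsin on ice. Libraries were made from each layer on 4 embryonic days (E), E9.5 and E10.5 and then E11.5 and E12.5, with 2 biological replicates in each of the 8 groups. A replicate of ectoderm and the same-numbered replicate of mesoderm at a stage came from the same batch of embryos. RNA came from the RNeasy Plus Mini kit in the first replicates and from the RNeasy Mini kit in the second, so the kit and the replicate number cannot be told apart. P-values of the main edgeR fits measure the spread between the 2 replicates of a group, pooled over the 8 groups. That spread takes in both embryo batch and kit. Libraries of the 2 layers that share a batch enter those fits as separate libraries. The exact permutation tests given further below measure no such spread.

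FGF receptors are tyrosine kinases on the cell surface that bind fibroblast growth factors together with heparan sulfate and signal through adaptor proteins to the MAP kinase cascade. In Fgfr1, Fgfr2 and Fgfr3 the second part of the last immunoglobulin-like domain, the part next to the membrane, is encoded by either of a pair of neighbouring exons called IIIb and IIIc, and this choice decides which ligands bind. IIIb forms are known from epithelia and bind FGF10 and FGF7, which mesenchyme makes. IIIc forms are known from mesenchyme and bind FGF8, FGF4 and FGF9, which the apical ectodermal ridge at the limb tip makes. Fgfr4 has a single form of this domain, and Fgfrl1 is a relative with no kinase that binds FGFs.

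The IIIb exons of Fgfr2 and Fgfr3 and the IIIc exon of Fgfr3 are printed because the choice between such exons is what was compared between the layers. Positions are in mm10 (GRCm38) and sequences were read 5′ to 3′ on the gene's strand from GENCODE M21 transcripts. Capitals mark bases that are identical at the aligned position of the 2 IIIb exons, and the IIIc exon is in lower case throughout. Fgfr1 (ENSMUSG00000031565) lies on the plus strand at chr8:25513654-25575718, with the coding IIIb exon in bin 21 and the coding IIIc exon in bin 22. Fgfr2 (ENSMUSG00000030849) lies on the minus strand at chr7:130162451-130266263, with IIIb at chr7:130199758-130199905 (148 bases, bin 17) and IIIc in bin 16. Fgfr3 (ENSMUSG00000054252) lies on the plus strand at chr5:33721674-33737068, with IIIb at chr5:33731281-33731431 (151 bases, bin 20) and IIIc at chr5:33732117-33732261 (145 bases, bin 21).
Fgfr2 IIIb: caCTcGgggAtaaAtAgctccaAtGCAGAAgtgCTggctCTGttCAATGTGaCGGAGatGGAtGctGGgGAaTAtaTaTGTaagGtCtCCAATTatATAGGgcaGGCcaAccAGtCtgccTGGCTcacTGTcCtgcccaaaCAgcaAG
Fgfr3 IIIb: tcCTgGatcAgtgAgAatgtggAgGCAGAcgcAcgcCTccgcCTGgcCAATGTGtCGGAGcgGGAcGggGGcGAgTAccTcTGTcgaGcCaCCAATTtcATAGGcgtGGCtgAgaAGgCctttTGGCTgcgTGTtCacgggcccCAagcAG
Fgfr3 IIIc: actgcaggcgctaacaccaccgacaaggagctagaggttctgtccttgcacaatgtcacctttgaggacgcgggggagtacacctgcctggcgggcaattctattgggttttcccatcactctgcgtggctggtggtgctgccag
The IIIb exons of Fgfr2 and Fgfr3 were identical at 77 bases, or 51.0% of the longer exon, and the IIIb and IIIc exons of Fgfr3 at 75 bases, or 49.7%. Fgfr4 (ENSMUSG00000005320, plus strand, chr13:55152640-55168759) and Fgfrl1 (ENSMUSG00000008090, plus strand, chr5:108692382-108706924) have no such pair in this annotation.

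The libraries held 10005867 to 30438214 gene counts, and 15501 of the 28342 genes with any count passed the filter on low counts. All 5 receptors passed it. The labelled layers were checked against markers. The summed level of 11 surface epithelium markers was 2603 to 7421 CPM (the count scaled to a common library size) in ectoderm, against 6.71 to 90.1 CPM in mesoderm. The summed level of 11 limb mesenchyme markers was 619 to 2717 CPM in ectoderm, against 2039 to 7660 CPM in mesoderm, and none of the markers on either list was at 0 in every library of a layer. Much of the ectoderm sum is Col1a2, with a mean of 510 CPM at E9.5 and 1130 CPM at E11.5. Of the 10 tested mesenchyme markers 8 were lower in ectoderm on average and 0 higher, and at E11.5 2 were lower. Col1a2 was higher in ectoderm at E9.5 (log2 1.98, edgeR adjusted p = 0.0324) and Pdgfra at E10.5 (log2 1.12, edgeR adjusted p = 0.0349). Against the mesoderm of the same embryo batch, the median mesenchyme marker stood in ectoderm at 24.2% and 13.3% at E9.5, then 15.8% and 11.51% at E10.5, next 44.1% and 9.01% at E11.5, and last 4.46% and 5.55% at E12.5 (replicates 1 and 2). Ectoderm E11.5 replicate 1, at 44.1%, stood apart from the other ectoderm libraries, and the average and E11.5 layer differences of the genes are given with and without it. Epithelium markers in mesoderm stood at 0.0959 to 2.27% of the paired ectoderm. Endothelial markers summed to 2.58 to 26.6 CPM in ectoderm, against 310 to 571 CPM in mesoderm, and erythroid markers to 12.3 to 727 CPM and 2301 to 5108 CPM. The part of these other cell types in the receptor values was not tested. In bulk tissue, fewer cells of a type and less RNA per cell cannot be told apart.

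Fgfr2, the receptor that takes up FGF10 in limb ectoderm when it carries the IIIb exon, was the receptor with the higher level in ectoderm at every stage. In ectoderm it measured 263 and 302 CPM at E9.5, then 275 and 314 CPM at E10.5, 197 and 320 CPM at E11.5, and last 433 and 454 CPM at E12.5. In mesoderm it measured 60.1 and 87.0 CPM at E9.5, then 7.35 and 7.71 CPM at E10.5, 41.9 and 20.8 CPM at E11.5, and last 83.4 and 82.9 CPM at E12.5. The lowest ectoderm library, E11.5 replicate 1, was above the highest mesoderm library, and mesoderm was lowest at E10.5 in both replicates. Averaged over the stages Fgfr2 was 9.01-fold higher in ectoderm (log2 3.17, SE 0.17, edgeR adjusted p = 2.78e-08), which held without ectoderm E11.5 replicate 1 (log2 3.2).

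The Fgfr2 layer difference was largest at E10.5, where the mesoderm level was lowest. It was log2 1.94 at E9.5 (SE 0.31, adjusted p = 0.000958), 5.29 at E10.5 (39.1-fold, SE 0.37, adjusted p = 2.35e-06), then 3.04 at E11.5 (SE 0.33, adjusted p = 5.87e-05, and log2 3.29 without ectoderm E11.5 replicate 1) and 2.41 at E12.5 (SE 0.32, adjusted p = 0.000185). In mesoderm the gene fell 9.77-fold from E9.5 to E10.5 (log2 -3.29, SE 0.34, adjusted p = 0.000206) and then rose 4.18-fold to E11.5 (log2 2.06, SE 0.33, adjusted p = 0.0326). That rise lost its call in 9 of the 16 fits that left out a library. It was log2 1.46 (adjusted p = 0.302) without mesoderm E11.5 replicate 1, and in the other 8 of these it was 2.03 to 2.09, with the highest adjusted p, 0.401, without mesoderm E10.5 replicate 1. The further step to E12.5 was log2 1.40 (adjusted p = 0.0909, 0.0158 with the replicate block). The block fits the embryo batch, or for stages the replicate number, as a term, and the adjusted p of this step ran from 2.25e-06 to 0.502 over the alternatives. In ectoderm the same 3 steps were log2 0.06, -0.19 and 0.78, none of which passed the test. The change from E9.5 to E10.5 differed between layers by log2 3.35 (SE 0.45, adjusted p = 0.00396), a contrast chosen after the values had been seen, and adjusted p was at most 0.0271 in its 19 alternatives.

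By level, the ectoderm groups at E9.5, E10.5 and E11.5 overlapped for Fgfr2 (283 ± 27.6, 295 ± 27.5 and 258 ± 86.6 CPM, SD, n = 2 each), and E12.5 was above them (443 ± 14.8). Mesoderm followed in the order E12.5 (83.2 ± 0.299), E9.5 (73.5 ± 19.0), E11.5 (31.3 ± 14.9) and E10.5 (7.53 ± 0.254). The E12.5 and E9.5 mesoderm ranges overlapped, and the others did not.

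Fgfr1, which in its IIIc form receives the ridge FGFs in limb mesenchyme, had the opposite layer. In mesoderm it measured 265 and 266 CPM at E9.5, then 333 and 308 CPM at E10.5, 285 and 272 CPM at E11.5, and last 302 and 265 CPM at E12.5. In ectoderm it measured 91.8 and 95.4 CPM, 90.3 and 115 CPM, 148 and 106 CPM, and 77.9 and 103 CPM at the same stages. The layers did not overlap, and the highest ectoderm value was that of E11.5 replicate 1. The gene was 2.79-fold lower in ectoderm on average (log2 -1.48, SE 0.10, adjusted p = 2.09e-07), and log2 -1.60 without that library. The difference was log2 -1.505, -1.64, -1.13 and -1.65 from E9.5 to E12.5 (adjusted p = 0.000215, 9.39e-05, 0.00151 and 8.80e-05), with E11.5 at -1.45 without ectoderm E11.5 replicate 1. Fgfr1 did not pass the test in any step or over the whole time in either layer. In ectoderm the E11.5 values overlapped those of E10.5 and were above those of E9.5 and E12.5. In mesoderm the E12.5 values overlapped those of E9.5 and E11.5, and E10.5 was above all 3.

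Fgfrl1, the relative without a kinase, was also the lower in ectoderm, by a smaller amount. It measured 22.6 to 35.3 CPM in the 8 ectoderm libraries (median 29.0), against 41.2 to 63.5 CPM in the 8 mesoderm libraries (median 47.6). The layers did not overlap, and they were nearest at E10.5 and E11.5, where ectoderm held 30.4 to 35.3 CPM and mesoderm 41.2 to 44.7 CPM. The gene was 1.66-fold lower in ectoderm on average (log2 -0.73, SE 0.07, adjusted p = 7.12e-06). The difference passed at E9.5 (log2 -0.94, adjusted p = 0.000775) and E12.5 (log2 -1.25, adjusted p = 8.48e-05). At E10.5 it was log2 -0.38 (adjusted p = 0.0848, 0.0312 with the replicate block, and 0.0312 to 0.351 over all alternatives) and at E11.5 -0.35 (adjusted p = 0.124, 0.0446 with the block, and 0.0311 to 0.577 over all alternatives, and log2 -0.45 without ectoderm E11.5 replicate 1). It did not pass in any step between stages.

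Fgfr3, a receptor best known for restraining cartilage growth, rose with time in both layers. In ectoderm it measured 3.38 and 6.64 CPM at E9.5, then 8.43 and 20.4 CPM at E10.5, 11.8 and 19.2 CPM at E11.5, and last 19.8 and 30.5 CPM at E12.5. In mesoderm it measured 2.53 and 4.98 CPM at E9.5, then 2.93 and 5.39 CPM at E10.5, 19.2 and 15.4 CPM at E11.5, and last 19.3 and 40.4 CPM at E12.5. Replicate 2 was the higher in 7 of the 8 groups. Cartilage and condensing mesenchyme markers summed to 137 and 125 CPM in E9.5 mesoderm and 1281 and 891 CPM in E12.5 mesoderm, and to 1657 and 1117 CPM and then 549 and 547 CPM in ectoderm. The ectoderm sum is mostly Col2a1, with a mean of 1260 CPM at E9.5, and the median marker there was at 103.9% and 118% of the paired mesoderm. Over the stages 2 of the 6 tested markers were higher in ectoderm and 3 lower. Their part in the result was not tested. From E9.5 to E12.5 the gene rose 4.94-fold in ectoderm (log2 2.31, SE 0.57, adjusted p = 0.0178) and 7.98-fold in mesoderm (log2 2.996, SE 0.58, adjusted p = 0.00286). The ectoderm call was lost without ectoderm E9.5 replicate 1 (log2 1.92, adjusted p = 0.140), E9.5 replicate 2 (2.89, 0.0513) or E12.5 replicate 2 (1.97, 0.0887), and its adjusted p ran from 1.68e-09 to 0.140 over the alternatives. With the replicate block 2 steps passed that did not in the main fit, ectoderm E9.5 to E10.5 (log2 1.48, adjusted p = 0.00793, against 0.197) and mesoderm E10.5 to E11.5 (log2 2.21, adjusted p = 0.00332, against 0.165). The ectoderm step also passed in edgeR with no filter on low counts (adjusted p = 0.000677). The mesoderm step also passed with DESeq2 (adjusted p = 0.0144) and in edgeR with no filter (adjusted p = 5.67e-07). Over their alternatives these adjusted p-values ran from 0.000677 to 0.800 and from 5.67e-07 to 0.919.

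Between layers Fgfr3 overlapped at E9.5, E11.5 and E12.5, with log2 differences of 0.44, -0.16 and -0.25 that did not pass. Without ectoderm E11.5 replicate 1 the E11.5 value was 0.09. At E10.5 it was 3.52-fold higher in ectoderm (log2 1.82, SE 0.56, adjusted p = 0.0335), with no overlap between the 2 ectoderm and the 2 mesoderm libraries. That call was lost without ectoderm E10.5 replicate 2 (log2 1.04, adjusted p = 0.314), mesoderm E10.5 replicate 1 (1.42, 0.224) or mesoderm E10.5 replicate 2 (2.30, 0.0528). The average over the stages was log2 0.46 (SE 0.27, adjusted p = 0.198) and passed with the replicate block (log2 0.44, adjusted p = 0.00924). Its adjusted p ran from 0.00924 to 0.480 over the alternatives.

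Fgfr4, the receptor best known in liver and in growing muscle, had few counts throughout. Its counts summed over both replicates were 42 in ectoderm and 61 in mesoderm at E9.5, then 3 and 17 at E10.5, next 14 and 27 at E11.5, and last 5 and 67 at E12.5. In CPM these were 0.0457 to 1.69 in ectoderm and 0.207 to 2.01 in mesoderm. The highest ectoderm libraries were both at E9.5, where the layers overlapped. By exact 95% intervals for counting error only, the ratio of mesoderm to ectoderm was 0.979 at E9.5 (0.650 to 1.49), 3.39 at E10.5 (0.979 to 18.03), then 2.08 at E11.5 (1.05 to 4.29) and lastly 13.3 at E12.5 (5.43 to 42.3). In the fit over libraries the gene was lower in ectoderm on average (log2 -1.56, SE 0.39, adjusted p = 0.00668) and at E12.5 (log2 -3.48, SE 0.81, adjusted p = 0.00746). Muscle cell markers summed to 23.4 to 181 CPM in ectoderm, against 2.45 to 84.5 CPM in mesoderm. The ectoderm sum is mostly Met, with a mean of 168 CPM at E9.5 against 24.5 CPM in mesoderm. Pax3 (2.62 against 14.9 CPM) and Lbx1 (2.38 against 21.8 CPM) were lower in ectoderm at that stage (edgeR adjusted p = 0.0261 and 0.00727). At E9.5 2 of the 4 tested muscle markers were higher in ectoderm and 2 lower. On average over the stages 2 were higher and 0 lower, and at E12.5 1 was higher and 0 lower. Their part in the result was not tested.

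The E12.5 difference in Fgfr4 rested on counts of 1 and 4 in the 2 ectoderm libraries. Without ectoderm E12.5 replicate 1 it was log2 -2.63 (adjusted p = 0.0750), and over all alternatives adjusted p ran from 0.000412 to 0.0750. Within ectoderm Fgfr4 fell from E9.5 to E10.5 (log2 -3.69, SE 0.88, adjusted p = 0.0399) and over the whole time (log2 -3.41, SE 0.82, adjusted p = 0.0158). The first of these lost its call in 10 of the 16 fits without a library, up to an adjusted p of 0.291, while the change itself ran from log2 -4.44 to -3.11 over the 16. The second lost its call without ectoderm E9.5 replicate 1 (log2 -3.50, adjusted p = 0.0502), E9.5 replicate 2 (-3.30, 0.0770) or E12.5 replicate 1 (-2.56, 0.130). In mesoderm Fgfr4 was at 2.01 and 1.17 CPM at E9.5, then 0.207 and 0.750 CPM at E10.5, 0.842 and 0.533 CPM at E11.5, and last 1.92 and 1.40 CPM at E12.5. The step from E9.5 to E10.5 there was log2 -1.80 (adjusted p = 0.153, 0.0401 with the replicate block, and 0.0401 to 0.566 over all alternatives).

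**Figure D1:**
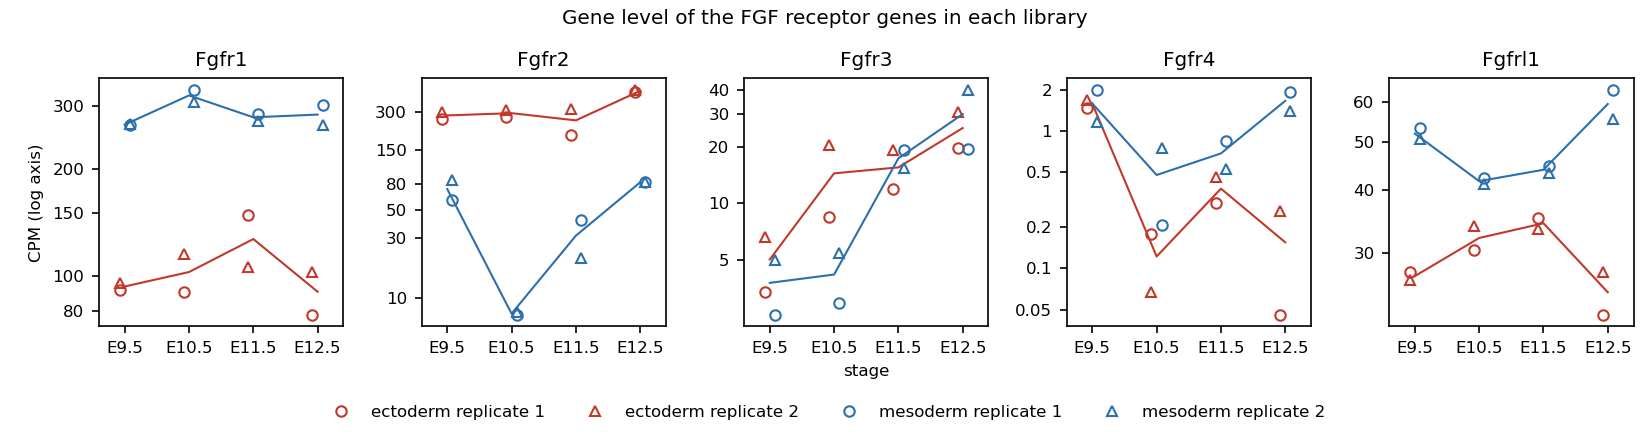
Level of each FGF receptor gene in CPM (vertical axis, log scale) by embryonic day (horizontal axis), with 1 point per library (circles replicate 1, triangles replicate 2) and a line through the mean of each layer. Fgfr2 lies between 197 and 454 CPM in ectoderm and dips to 7.35 and 7.71 CPM in E10.5 mesoderm, Fgfr1 and Fgfrl1 are the higher in mesoderm, and Fgfr3 climbs in both layers.

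Counted over the family, 4 of the 5 receptors passed the test for the average layer difference, 1 higher in ectoderm (Fgfr2) and 3 lower (Fgfr1, Fgfr4 and Fgfrl1). Without ectoderm E11.5 replicate 1 the average difference was log2 0.49 for Fgfr3, -1.54 for Fgfr4 and -0.79 for Fgfrl1, and the layer calls over the average and the stages numbered 16 as before. For Fgfr4 at E11.5 it was -0.88, and -0.63 without that library, and neither passed. Of all 15501 tested genes 45.7% passed, 24.3% higher and 21.4% lower. At the single stages 3 receptors passed at E9.5 (21.4% of all genes), 3 at E10.5 (26.4%), then 2 at E11.5 (20.6%) and lastly 4 at E12.5 (26.4%). Over time from E9.5 to E12.5, 2 receptors passed in ectoderm (16.1% of all genes) and 1 in mesoderm (29.6%). Of the single steps, 1 receptor passed in ectoderm from E9.5 to E10.5 (4.14%), and in mesoderm 1 passed from E9.5 to E10.5 (9.24%) and 1 from E10.5 to E11.5 (0.394%). No receptor passed in ectoderm from E10.5 to E11.5 (0.00645%) or E11.5 to E12.5 (0.426%), or in mesoderm from E11.5 to E12.5 (0.31%). At an unadjusted p under 0.05 these 3 steps held 0, 3 and 2 receptors, and DESeq2 called 0, 0 and 1.

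None of the 5 receptors passed edgeR's test for a layer difference in the change between E9.5 and E12.5 (8.27% of all genes). At the unadjusted threshold of 0.05 there was 1, Fgfr4 (log2 -3.47, SE 1.05), whose adjusted p was 0.0687 with edgeR. Fgfr4 passed with DESeq2 (log2 -3.52, adjusted p = 0.0360), with no filter on low counts (-3.51, 0.0286), with the replicate block (-3.59, 0.0239) and without ectoderm E12.5 replicate 2 (-4.98, 0.0484). Its adjusted p ran from 0.0239 to 0.250 over the alternatives. For the change from E9.5 to E10.5, chosen after the values had been seen, Fgfr2 was the 1 receptor that passed (2.27% of all genes).

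Levels of different receptors were set beside each other only per transcript length, as the authors' FPKM (fragments scaled to transcript length and library size). In ectoderm the order at every stage was Fgfr2, Fgfr1, Fgfrl1, Fgfr3, Fgfr4. At E12.5 these were 94.3 ± 7.6, 23.3 ± 4.7, 9.28 ± 0.83, 6.95 ± 2.3 and 0.0395 ± 0.0402 FPKM (SD, n = 2). In mesoderm Fgfr1 led at every stage, with 59.4 ± 2.2, 75.8 ± 3.5, 72.0 ± 0.82 and 72.0 ± 2.7 FPKM. Below it the group means kept the order Fgfrl1, Fgfr2, Fgfr3, Fgfr4 at every stage, while the gaps between them changed. At E9.5 Fgfrl1 was at 17.6 ± 0.021 FPKM and Fgfr2 at 15.01 ± 4.7, with library values that overlapped. At E10.5 Fgfr2 (1.65 ± 0.23) was near Fgfr3 (1.1605 ± 0.74), whose library values overlapped with it. Fgfr4 stood at 0.0294 to 0.434 FPKM as a group mean and was the lowest receptor in all 8 groups.

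Within the genes, 88 of the 134 exon bins passed the filter: 26 of 36 in Fgfr1, 25 of 27 in Fgfr2, 28 of 39 in Fgfr3, 9 of 14 in Fgfrl1 and none of 18 in Fgfr4. Use of a bin means its count relative to the other bins of the gene, so it is free of the level of the gene. For the average layer difference 3 bins passed the test (0.273% of the 156025 bins tested), 2 used more in ectoderm (0.162%) and 1 less (0.111%), and all 3 were IIIb or IIIc exons. They were the Fgfr1 IIIb exon, the Fgfr2 IIIc exon and the Fgfr2 IIIb exon, which ranked 8, 25 and 29 by p among all bins. At single stages 3 passed at E9.5 (0.0353% of all bins), 1 at E10.5 (0.0545%), then 3 at E11.5 (0.0378%) and likewise 3 at E12.5 (0.0814%). The tests have a limit, since reads spanning a junction can be counted in several bins and the spread is pooled over the bins of a gene.

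None of the 82 tested bins outside the IIIb and IIIc exons passed. Their log2 differences in use between layers ran from -0.21 to 0.22 over 24 Fgfr1 bins, from -0.34 to 0.32 over 23 Fgfr2 bins, from -0.50 to 1.33 over 26 Fgfr3 bins and from -0.05 to 0.27 over 9 Fgfrl1 bins. Fgfr3, with its low counts, had the widest range.

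**Figure D2:**
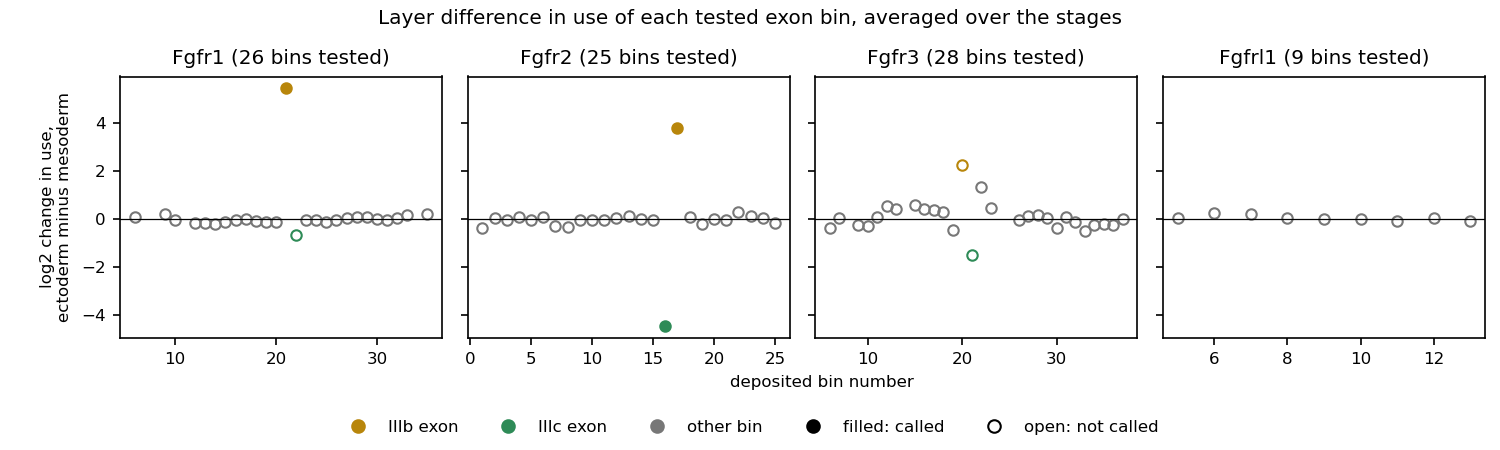
Log2 difference in use between ectoderm and mesoderm, averaged over the stages (vertical axis), for each tested exon bin by deposited bin number (horizontal axis), with called bins filled and the IIIb and IIIc exons coloured. The filled bins are the IIIb exon of Fgfr1 at 5.46 and the exons of Fgfr2 at 3.80 (IIIb) and -4.43 (IIIc), and the bins of Fgfr3 outside these exons run from -0.50 to 1.33.

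The 2 layers read the Fgfr2 gene through different exons. In ectoderm 1796 counts fell on IIIb and 87 on IIIc, and in mesoderm 20 fell on IIIb and 385 on IIIc. The share of IIIb in the counts of both exons was 95.4% and 91.5% in ectoderm at E9.5, then 97.2% and 88.4% at E10.5, next 98.2% and 96.9% at E11.5, and last 99.3% and 93.4% at E12.5. In mesoderm it was 3.08% and 3.85% at E9.5, then 0% and 20% at E10.5, next 14.9% and 13.3% at E11.5, and last 0% and 5.15% at E12.5. The layers did not overlap. The mesoderm values at E10.5 rest on 7 and 5 counts (95% Wilson intervals 0 to 35.4% and 3.62 to 62.4%, and up to 42.9% for the first if a count of 0 is taken to allow 3), where the gene itself was low.

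For Fgfr2 the mean of the 4 stage means was 95.02% in ectoderm and 7.54% in mesoderm. The difference of 87.5 percentage points had p = 0.00154, adjusted 0.00231 over the 3 receptors, in a two-sided exact permutation test of the layer labels within stages (0.00154 is the smallest p its 1296 arrangements allow). IIIb was higher in ectoderm in 8 of 8 embryo batches. In use of bins the IIIc exon was at log2 -4.43 (SE 0.34, adjusted p = 1.06e-24) and the IIIb exon at 3.80 (SE 0.31, adjusted p = 4.28e-22). By stage the IIIc exon was at log2 -4.05, -3.24, -5.20 and -5.21 and passed at all stages but E10.5 (adjusted p = 0.0525), while the IIIb exon was at 4.40, 3.55, 2.57 and 4.69 and likewise missed at E10.5 (adjusted p = 0.141). Adjusted p of IIIc at E10.5 ran from 0.0290 to 1.0 over the alternatives, with 0.0295 (log2 -3.24) without ectoderm E11.5 replicate 1. When a library was left out the E12.5 values ran from -7.45 (without ectoderm E12.5 replicate 2) to -4.27 for IIIc and from 3.49 to 9.02 (without mesoderm E12.5 replicate 2, which leaves 0 counts) for IIIb. The E11.5 call of IIIb (adjusted p = 0.00869) was lost with the replicate block (log2 2.45, adjusted p = 0.538), with limma (2.65, 0.431), and when mesoderm E11.5 replicate 1 (2.74, 1.0) or replicate 2 (2.62, 0.127) was left out.

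The few IIIb counts of Fgfr2 in mesoderm were set beside the epithelium markers there. Fgfr2 IIIb in mesoderm was 0 to 3.31% of the paired ectoderm level in CPM (median 0.901% over 8 batches), and epithelium markers stood at 0.0959 to 2.27%. Both had their highest value in the E11.5 replicate 1 batch. The reverse comparison, Fgfr2 IIIc in ectoderm, ran from 3.46% of the paired mesoderm level to 587% at E10.5, where mesoderm held 0.273 CPM of it. The part of carried-over cells in these values was not tested.

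Fgfr1 was read through IIIc in mesoderm and through both exons in ectoderm. In mesoderm 26 counts fell on IIIb and 3372 on IIIc, against 367 and 631 in ectoderm. The share of IIIb was 23.8% and 22.5% in ectoderm at E9.5, then 40% and 43.7% at E10.5, next 23.05% and 54.5% at E11.5, and last 38.7% and 53.3% at E12.5. In mesoderm it was 0% in all 4 first replicates, whose 403 to 748 counts allow a share of up to 0.401 to 0.744% if a count of 0 is taken to allow 3 (upper Wilson limits, as plotted, 0.511 to 0.944%), and 1.88%, 3.07%, 2.27% and 1.23% in the second replicates. The lowest ectoderm library was above the highest mesoderm library, and the ectoderm values were low in both E9.5 libraries and in E11.5 replicate 1.

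For Fgfr1 the mean of the stage means was 37.4% in ectoderm and 1.06% in mesoderm, a difference of 36.4 percentage points (exact permutation p = 0.00154, adjusted 0.00231) that was found in 8 of 8 embryo batches. Without ectoderm E11.5 replicate 1 it was 40.3 points. In use of bins the IIIb exon was at log2 5.46 (SE 0.31, adjusted p = 1.17e-38), and at 4.72, 5.03, 5.48 and 6.61 from E9.5 to E12.5 (adjusted p = 3.53e-07, 3.07e-10, 2.54e-11 and 2.00e-15). These sizes rest on single mesoderm libraries, since the first replicates held 0 IIIb counts. When a library was left out they ran from 3.62 to 9.37 at E9.5, 3.67 to 10.3 at E10.5, then 4.27 to 10.2 at E11.5 and 5.36 to 10.7 at E12.5, with the lowest without the first and the highest without the second mesoderm replicate of the stage. The highest are fitted against 0 counts and are no bound. The E11.5 value was 6.19 without ectoderm E11.5 replicate 1. The E9.5 call was lost without mesoderm E9.5 replicate 1 (log2 3.62, adjusted p = 0.0805), and its adjusted p ran from 1.73e-07 to 0.0805 over the alternatives. The IIIc exon of Fgfr1 was at log2 -0.65 (SE 0.16, adjusted p = 0.0878) and passed with the replicate block (-0.65, adjusted p = 0.000708) and with limma (-0.68, adjusted p = 0.0104). Its adjusted p ran from 0.000708 to 0.329 over the alternatives.

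The Fgfr1 IIIb share of ectoderm was set beside the mesenchyme markers there. E11.5 replicate 1, with 23.05% IIIb, had the markers at 44.1% of mesoderm, against 54.5% IIIb and 9.01% in E11.5 replicate 2. At E9.5 the markers stood at 24.2% and 13.3%, with 23.8% and 22.5% IIIb. At E12.5, where the markers were at 4.46% and 5.55% of mesoderm, the Fgfr1 IIIc exon in ectoderm was at 14.9% and 21.2% of its mesoderm level in CPM. Over all 8 batches that level was 12.4 to 37.8%, highest in E11.5 replicate 1. The part of mesenchymal cells in the IIIc counts of ectoderm was not tested.

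**Figure D3:**
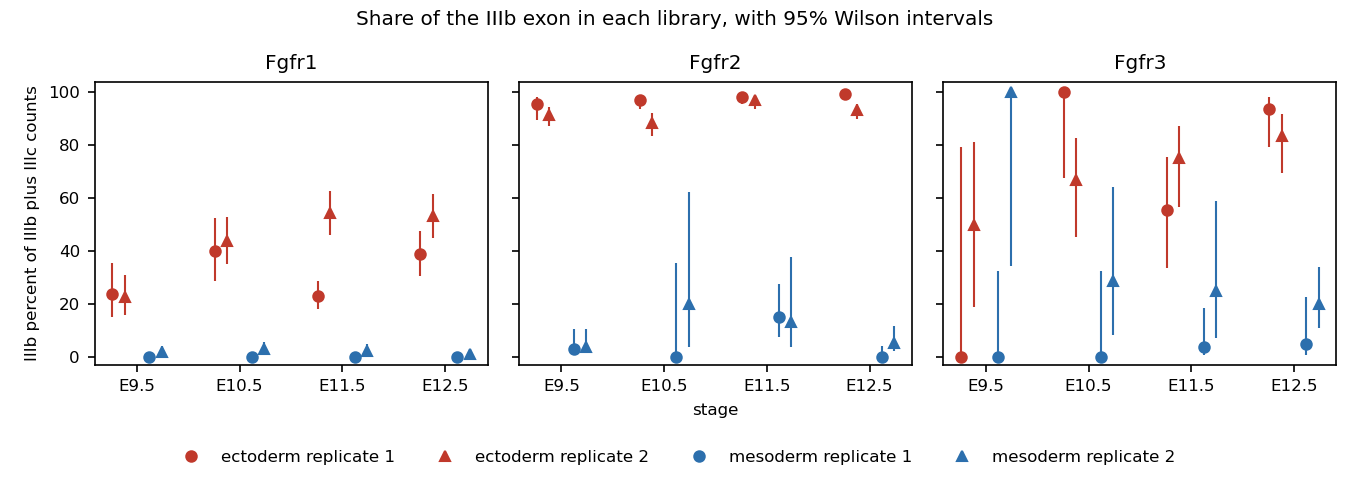
IIIb counts as a percent of IIIb plus IIIc counts (vertical axis) in each library by embryonic day (horizontal axis) for Fgfr1, Fgfr2 and Fgfr3, with 1 point per library (circles replicate 1, triangles replicate 2) and 95% Wilson intervals that cover counting error only. In Fgfr2 ectoderm lies at 88.4 to 99.3% and mesoderm at 0 to 20%, in Fgfr1 ectoderm lies at 22.5 to 54.5% and mesoderm at 0 to 3.07%, and in Fgfr3 the intervals are wide.

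Fgfr3 had few counts on these exons, 120 IIIb and 35 IIIc in ectoderm and 17 IIIb and 109 IIIc in mesoderm over all libraries. The share of IIIb in ectoderm was 0% and 50% at E9.5 (1 and 6 counts), then 100% and 66.7% at E10.5 (8 and 21 counts), 55.6% and 75% at E11.5 (18 and 28 counts), and last 93.5% and 83.3% at E12.5 (31 and 42 counts). In mesoderm it was 0% and 100% at E9.5 (8 and 2 counts), then 0% and 28.6% at E10.5 (8 and 7 counts), 3.70% and 25% at E11.5 (27 and 8 counts), and last 4.76% and 20% at E12.5 (21 and 45 counts). The layers overlapped at E9.5 and did not overlap from E10.5 on.

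The Fgfr3 means were 65.5% in ectoderm and 22.8% in mesoderm. The difference of 42.8 percentage points had p = 0.0432 (exact permutation test, adjusted 0.0432). It was found in 6 of 8 embryo batches and did not pass when the sign of each batch's difference was permuted (exact p = 0.0625, adjusted 0.0625, with 0.00781 the smallest p possible). Leaving out 1 library ended the call in 11 of 16 cases, with the smallest difference, 30.3 points (adjusted p = 0.216), without mesoderm E9.5 replicate 1. Adjusted p ran from 0.00463 to 0.216 over all alternatives. In use of bins the Fgfr3 IIIb exon was at log2 2.25 (SE 0.66, adjusted p = 0.220) and the IIIc exon at -1.49 (SE 0.54, adjusted p = 1.0). At E12.5 the IIIb exon was at log2 2.95 (SE 0.95, adjusted p = 1.0) and passed with the replicate block (3.01, adjusted p = 0.0115, the lowest over the alternatives, whose highest was 1.0).

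The exon that was rare in a layer was counted more often in the second replicates. Of the IIIb plus IIIc counts of Fgfr2 in ectoderm, 17 of 926 (1.84%, 95% Wilson interval 1.15 to 2.92%) fell on IIIc in the first replicates and 70 of 957 (7.31%, 5.83 to 9.14%) in the second. Of the IIIb plus IIIc counts of Fgfr1 in mesoderm, 0 of 2163 fell on IIIb in the first replicates and 26 of 1235 (2.11%, 1.44 to 3.07%) in the second. The 0 counts allow a share of up to 0.139% by 3 counts and 0.177% by the Wilson interval. Of the IIIb plus IIIc counts of Fgfr3 in mesoderm, 2 of 64 (3.13%) and 15 of 62 (24.2%) fell on IIIb. Fgfr2 IIIb in mesoderm was nearer, at 9 of 210 (4.29%) and 11 of 195 (5.64%), with intervals that overlap. Counts outside any exon bin were 2.17 to 3.35% of a first replicate and 3.15 to 6.67% of a second, and the RNA kit also followed the replicate number. Their part in these shares was not tested.

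As a share of all bin counts of the gene, single exons are small. The Fgfr2 IIIb exon took 2.65 to 3.69% (median 2.85%) in ectoderm and 0 to 0.585% (median 0.196%) in mesoderm, and the IIIc exon 0.0210 to 0.348% (0.118%) and 2.22 to 4.56% (3.005%). The Fgfr1 IIIb exon took 1.03 to 3.06% (1.67%) and 0 to 0.142% (0.0295%), and the IIIc exon 2.30 to 3.82% (2.77%) and 4.03 to 5.01% (4.72%). For Fgfr3 the IIIb exon took 0 to 4.88% (3.36%) and 0 to 1.63% (0.337%), and the IIIc exon 0 to 1.92% (1.43%) and 0 to 8.51% (3.36%). The layers did not overlap in the exons of Fgfr1 and Fgfr2 and overlapped in those of Fgfr3.

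**Figure D4:**
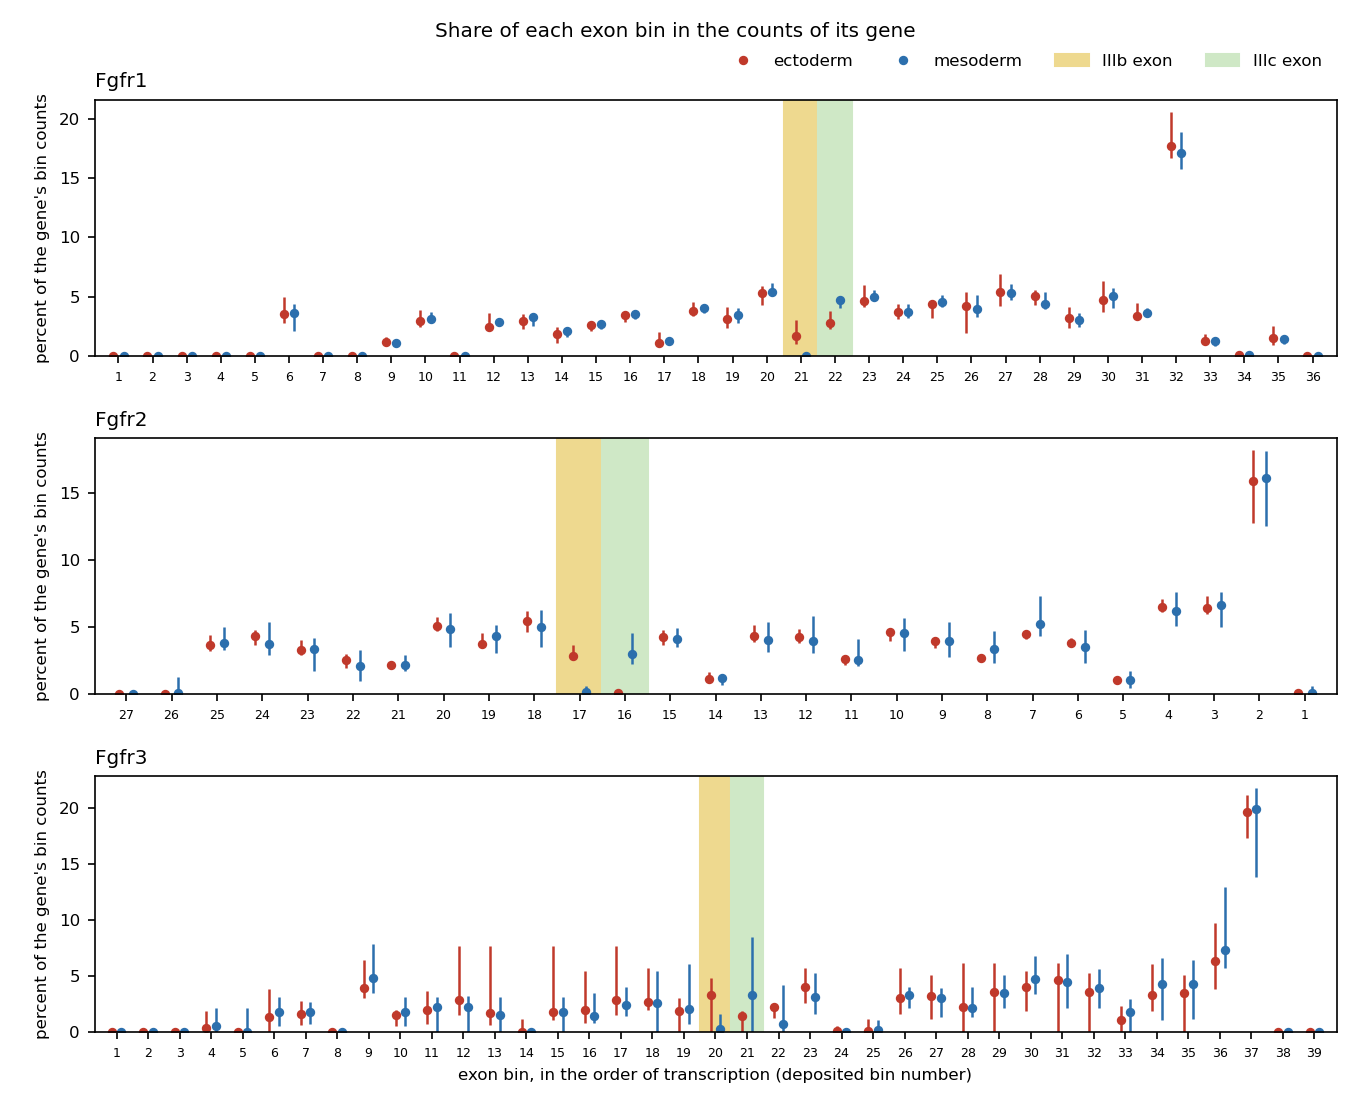
Percent of a gene's bin counts on each exon bin of Fgfr1, Fgfr2 and Fgfr3 (vertical axis), in the order of transcription by deposited bin number (horizontal axis), with the median of the 8 libraries of a layer as a point and their range as a line. The layers lie side by side in most bins and part in the shaded IIIb and IIIc exons, where Fgfr2 IIIb has medians of 2.85% in ectoderm and 0.196% in mesoderm and Fgfr2 IIIc of 0.118% and 3.005%.

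The counts on both exons together were compared with those on the shared coding exons on either side of the pair. These are raw counts, not divided by exon length, so the percentages do not give the share of transcripts that hold either exon. In Fgfr1 they came to 80 to 111% of the mean of the flanking exons in ectoderm (median 98.2%) and 77.6 to 96.3% in mesoderm (91.7%). In Fgfr2 they came to 51.8 to 73.3% in ectoderm (67.8%) and 56 to 95.1% in mesoderm (73.8%). The ranges overlapped between the layers in both genes.

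Seen over the 3 receptors together, ectoderm held both kinds of exon and mesoderm almost only IIIc. The IIIb exons made up 59.0 to 85.8% (median 76.2%) of the IIIb and IIIc counts of an ectoderm library and 0 to 3.85% (2.11%) of a mesoderm library. In ectoderm 69.9 to 87.3% (80.6%) of the IIIb counts came from Fgfr2, 9.78 to 23.4% (15.6%) from Fgfr1 and 0 to 8.997% (4.77%) from Fgfr3. The IIIc counts of ectoderm came mainly from Fgfr1, at 68.4 to 94.0% (84.6%). In mesoderm 71.6 to 98.0% (86.4%) of the IIIc counts came from Fgfr1, 0.917 to 20.4% (10.3%) from Fgfr2 and 0 to 8% (1.93%) from Fgfr3. The lowest IIIb share of an ectoderm library, 59.0%, was that of E11.5 replicate 1, and without it the lowest was 67.0%. These shares rest on 118 to 491 IIIb and 41 to 199 IIIc counts in an ectoderm library, and on 0 to 18 and 277 to 763 in a mesoderm library.

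**Figure D5:**
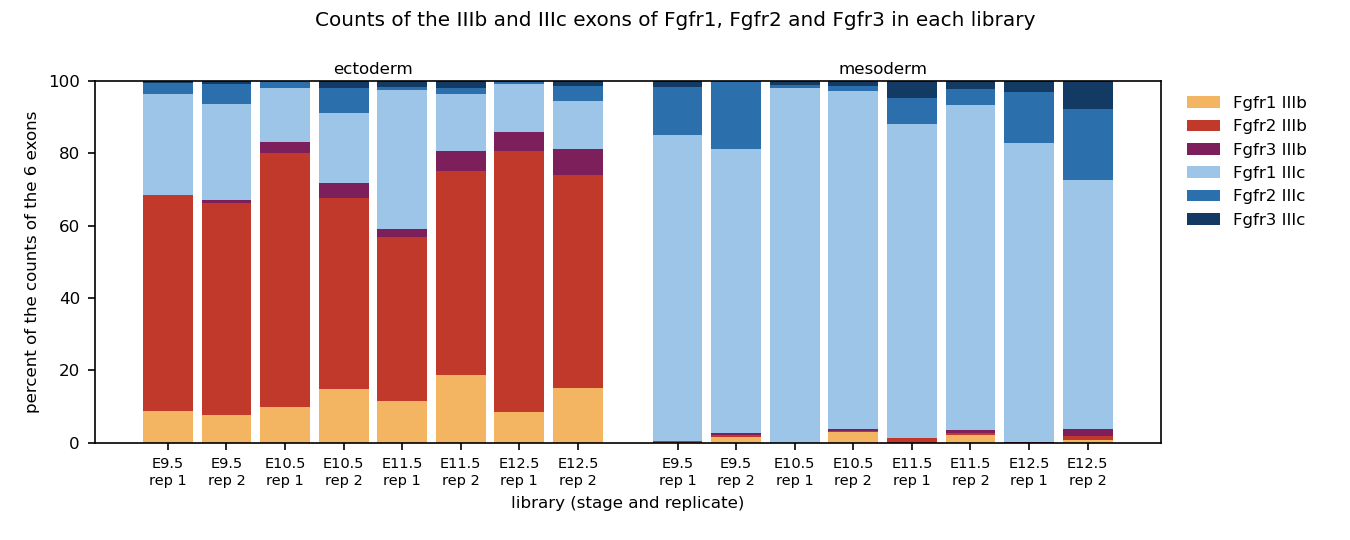
Percent of the counts on the 6 exons of Fgfr1, Fgfr2 and Fgfr3 that fall on each exon (vertical axis, stacked) in each of the 16 libraries (horizontal axis). Fgfr2 IIIb is the main exon of the ectoderm libraries, with 45.4 to 72.4% of the counts, and Fgfr1 IIIc the main exon of the mesoderm libraries, with 68.8 to 98.0%.

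Over time within a layer the use of exons did not pass the test. Between E9.5 and E12.5 none of the 88 receptor bins was called in ectoderm (0.0115% of all bins) or in mesoderm (0.0141%), by edgeR or by limma. At the unadjusted threshold of 0.05 there was 1 in ectoderm, the Fgfr1 IIIb exon (SE 0.48 on a log2 difference of 1.163), with an edgeR adjusted p of 1.0, and 0 in mesoderm. The IIIb share of Fgfr1 in ectoderm was 23.2% ± 0.926 at E9.5 and 46.0% ± 10.3 at E12.5 (SD, n = 2), with no overlap. The E11.5 libraries, at 38.8% ± 22.2, spanned that range. In Fgfr2 the ectoderm share was 93.4% ± 2.75, 92.8% ± 6.20, 97.6% ± 0.937 and 96.3% ± 4.17 from E9.5 to E12.5. The E11.5 values were above those of E9.5, and the other pairs of stages overlapped.

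Other alternative parts of the receptors did not pass the test between layers. Their counts are given as a percent of the counts on a neighbouring bin, without correction for length. The percentages compare the layers and do not give the rate at which a part is included. The 6-base end of the Fgfr2 transmembrane exon (bin 14), an alternative splice site, was counted at 28.7% of its neighbour in ectoderm and 26.3% in mesoderm, pooled over libraries. The 6-base part of Fgfr1 (bin 17) was at 32.9% and 30.9%. The exon of the first immunoglobulin-like loop of Fgfr2 (bin 22, 267 bases), which is left out of short forms of the receptor, was at 46.7% and 46.6% of its neighbour, and a 78-base exon beside it (bin 21) at 39.6% and 41.6%. In Fgfr1 the first-loop exon was at 58.9% and 59.4%. The medians over libraries were further apart for the first-loop exons, at 49.2% in ectoderm and 39.7% in mesoderm for Fgfr2 and 50.5% and 61.3% for Fgfr1, with ranges that overlapped. These tests are those of the average layer difference.

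The genes whose log2 CPM followed a receptor most closely over the 16 libraries are given as a description, by Pearson's r among the 10903 or 10904 other genes with a mean of 5 CPM or more. The libraries fall into 2 layers, so r mostly reflects the layer where a receptor differs between them. All genes of a library also share its depth, which ran from 10005867 to 30438214 gene counts. Fgfr2 was most like C330018D20Rik (r = 0.98), Irx2 (0.96) and Foxp1 (0.96). Fgfr1 was most like Rapgef3, Shank3 and Tagln3 (0.98 each), and Fgfrl1 like Zfhx4 (0.94), Mef2c (0.94) and Sema5a (0.92). Fgfr3, which did not separate the layers, was most like Rbl2 (0.96), Atl3 (0.95) and Lrsam1 (0.95). Fgfr4 was most like Wrb (0.90), Pmp22 (0.85) and Tmem29 (0.83).

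The ligands were counted by the receptor form they mainly bind. Of 4 ligands that mainly bind IIIb forms, 2 were tested, and on average 1 was higher in ectoderm and 1 lower. Fgf10, the mesodermal factor that limb outgrowth needs, was at 61.0 to 107 CPM in mesoderm and 1.38 to 17.9 CPM in ectoderm (log2 -3.82, SE 0.36). Fgf3 was at 0.725 to 18.5 CPM in ectoderm, against 0 to 0.184 CPM in mesoderm (log2 5.67, SE 0.61). Of 10 ligands that mainly bind IIIc forms 7 were tested, 5 higher in ectoderm and 2 lower (24.3% and 21.4% of all genes), with a median of log2 4.77 against 0.01 over all genes. The ridge factor Fgf8 was at 63.6 to 1597 CPM in ectoderm, against 0.0610 to 9.07 CPM in mesoderm (log2 8.08, SE 0.40), Fgf4 was at log2 7.39 (SE 0.89) and Fgf17 at 6.81 (SE 0.43). Fgf1, which binds both forms, was at log2 4.59 (SE 0.34). Each of these named ligands had an edgeR adjusted p of at most 4.99e-05.

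Of 14 regulators of IIIb and IIIc exons 3 were higher in ectoderm and 2 lower (24.3% and 21.4% of all genes). Their median was log2 -0.18. Esrp1 and Esrp2, splicing factors of epithelia that are known to favour IIIb, were the genes of this list with the largest differences. Esrp1 was at 195 to 318 CPM in ectoderm, against 0.261 to 4.52 CPM in mesoderm (log2 7.53, SE 0.25, adjusted p = 1.34e-09). Esrp2 was at 37.9 to 141 CPM and 0.122 to 1.77 CPM (log2 7.16, SE 0.18, adjusted p = 2.19e-10). Esrp1 is also on the list of epithelium markers, so it is not separate from the check of the labels. Rbfox1 was at 0.211 to 1.45 CPM and 0.0478 to 1.44 CPM (log2 1.43, SE 0.38, adjusted p = 0.00867), with layers that overlap.

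The remaining lists held genes that moved in both directions, and of all tested genes 24.3% were higher in ectoderm and 21.4% lower. Of 19 cofactors, the heparan sulfate carriers and enzymes and receptor partners, 17 were tested, 6 higher in ectoderm and 4 lower, with a median of log2 0.01. The largest differences were in Sdc4 (log2 2.76, SE 0.15) and Gpc4 (2.601, SE 0.12), which carry heparan sulfate, and Flrt3 (2.52, SE 0.19), a membrane protein that binds FGF receptors. Of 21 signal carriers 2 were higher and 6 lower, with a median of log2 0.01, and large differences were in Hras (1.38, SE 0.19) and Stat3 (-1.28, SE 0.10). Of 12 feedback genes and targets 11 were tested, 6 higher and 2 lower, with a median of log2 0.31. Etv1, a transcription factor that FGF signals induce, was at log2 1.75 (SE 0.16), Spry1, an inhibitor of the pathway, at 1.36 (SE 0.14), and Il17rd, another inhibitor, at -1.67 (SE 0.10). In all 41 of the 73 pathway genes tested passed, 24 higher in ectoderm and 17 lower, where 45.7% of all tested genes passed, and the lists were chosen with earlier results of these data known.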

How the data were processed

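RNA-seq of ectoderm and mesoderm from the distal forelimb gave 16 libraries in 8 groups of 2. Per the submitters' processing notes build mm10 was used, and the programs named are STAR 2.6.0c, cutadapt 1.16, bedtools 2.27.1 and Cufflinks 2.2.1, with no role given for each, and the way genes were counted and whether strand was used are not given in the sources used here. The authors deposited whole-number counts per gene and per exon bin, as the values show, and, per the file headers, FPKM values per gene, which were used only to order receptors within a group. If counting did not use strand, reads from an overlapping antisense gene cannot be told apart.

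Gene counts were tested with the quasi-likelihood test of edgeR 4.0.16 (R 4.3.3) with TMM scaling, filterByExpr and all 8 groups in 1 fit, and exon bins with its diffSpliceDGE. P-values were adjusted by Benjamini-Hochberg over all 15501 genes or 156025 bins and called under 0.05. The SE of a difference in bin use is approximate, from the difference and its F value. CPM used edgeR's effective library sizes. IIIb percentages were tested by exact permutation in Python 3.11.15 with scipy 1.17.1. Bin counts were matched to GENCODE M21 exons by bin order. In Fgfr2 the matched order (Spearman 0.708 between bin length and count, against 0.282 reversed) used 16 of 17 coding transcripts, which give the deposited 27 bins. Both fits were tested on simulated data for the average layer difference only. The change was the same at every stage, and a single spread was set for all genes or all bins. Single stages and steps between stages were not simulated, so the rates do not apply to them. The gene fit called 85% of changes of log2 1 and 96% of log2 2 over 15501 genes, and the bin fit called 97% of changes of log2 1.5 and 98.9% of log2 3.

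Same-numbered ectoderm and mesoderm libraries share an embryo batch per the labels, and their deviations correlated at 0.546, 0.666, 0.561 and 0.651 from E9.5 to E12.5 over all tested genes. A replicate block was run as an alternative. The others were DESeq2 1.42.0, limma 3.58.1, no filter or another filter, and leaving out each library. All members, their IIIb and IIIc bins, the 3 genes most like each member by Pearson's r and up to 3 genes per pathway list with the largest differences were named, except that some items are not reported here. The members and lists were chosen with earlier results of these data known. Intervals cover counting error only, since PCR reads without molecular identifiers are not independent molecules.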

Additional observations from a re-analysis of the deposited data

Results flagged for a closer look

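In Fgfr2 the change from E9.5 to E10.5 differed between the layers by log2 3.35 (SE 0.45, edgeR adjusted p = 0.00396), a contrast chosen after the values had been seen. In mesoderm the gene went from 60.1 and 87.0 CPM to 7.35 and 7.71 CPM, and in ectoderm from 263 and 302 CPM to 275 and 314 CPM. Over the alternatives the difference ran from log2 3.05 to 3.59, with an adjusted p of at most 0.0271. Of all genes 2.27% passed this test.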

How the results depend on the processing

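No called result changed direction under an alternative. Over all layer comparisons together 16 receptor calls were made, against 18 with DESeq2, 16 with no filter, 19 with the replicate block and 15 to 16 when a library was left out. The 3 calls from E9.5 to E12.5 within a layer ranged from 1 to 3 when a library was left out, with 1 without ectoderm E9.5 replicate 1 or replicate 2. For the layer difference in that change the count of 0 became 1 (Fgfr4) with DESeq2, with no filter on low counts and with the replicate block, and ranged from 0 to 1 when a library was left out, and the cause was not tested. The pathway count of 41 was 46 with DESeq2, 46 with no filter, 55 with the block and 37 to 43 without a library. The 13 bin calls between layers were 13 with limma, 13 with another filter, 14 with the block and 13 to 14 without a library.

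The IIIb difference of Fgfr1 was 32.5 to 40.3 points without a library and that of Fgfr2 84.99 to 89.99, and both passed in all 19 alternatives. That of Fgfr3 kept its call with counts divided by exon length and was 42.8 (adjusted p = 0.0625) in the replicate block of sign flips and 30.3 to 55.3 without a library, where 11 of 16 lost the call. As percent of all bin counts of the gene the differences were 1.78, 2.71 and 2.49 points. Apart from the calls named beside the results, the block changed no other receptor call. Fgfr4 and the exons of Fgfr3 are limited by their counts, as is Fgfr2 in E10.5 mesoderm.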
